A study of Mus musculus with 11 samples.

Results

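L3mbtl3 and its relatives were followed through 11 RNA-seq libraries of the mouse embryonic brain. Those at E12.5 came from dorsal telencephalon, the part of the forebrain that forms the neocortex, and those at E15.5 from sorted brain cells. The set was named gene by gene and holds 10 of the 46078 genes counted: 9 genes of proteins with MBT domains or the related MBT-like modules (L3mbtl1, L3mbtl2, L3mbtl3, L3mbtl4, Mbtd1, Sfmbt1, Sfmbt2, Phf20 and Phf20l1) and Samd1, whose protein shares a SAM domain with L3mbtl3 and binds it. All 10 symbols matched a single gene identifier of the count files.

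All embryos were of the CD-1 strain. For the gain groups, wild-type embryos were electroporated in utero at E12.5 with pCIG2, a plasmid that expresses GFP (3 libraries), or with pCIG2-L3mbtl3 (3 libraries), and GFP-positive brain cells were sorted at E15.5. For the loss groups, dorsal telencephalon was dissected at E12.5 from 1 wild-type (L3mbtl3 +/+), 2 heterozygote (+/-) and 2 knockout (-/-) samples, and the wild-type and heterozygotes together are the 3 controls that the series' design counts. The allele that makes the knockout, the promoter and the L3mbtl3 insert of the plasmid, and whether embryos were pooled were not given in the sources used here. CD15-positive E14.5 cells that the design also names were not analysed here. Since no label says whether replicates are separate embryos, a p-value here speaks only of the spread between these samples, which may be technical.

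MBT domains are folded modules with an aromatic cage that holds lysines carrying 1 or 2 methyl groups, marks found on histone tails and on other nuclear proteins. Proteins with these domains mostly act in complexes that compact chromatin or repress genes: L3mbtl2 is a subunit of a variant Polycomb complex (PRC1.6), Sfmbt1 and Sfmbt2 are relatives of the Drosophila Polycomb-group protein dSfmbt, and L3mbtl3 has been reported with the histone demethylase LSD1 (Kdm1a) and the Notch pathway factor Rbpj. Mbtd1 and Phf20, by contrast, belong to the histone acetyltransferase complexes NuA4/TIP60 and NSL, and Phf20l1 is the paralog of Phf20. In the embryonic cortex such readers are studied because progenitors must silence and open gene programmes in order as they turn from division to making neurons.

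Library totals ran from 16527551 to 26658718 counts. The 7 dorsal telencephalon genes used as a label check were Emx1, Emx2, Pax6, Lhx2, Neurog2, Tbr1 and Eomes. They summed to 1286 to 1554 CPM (counts scaled to library size) in the 11 libraries, and none of them was at 0 in any library. Single genes changed in both directions within this even sum. By the test described below, 2 of the 7 rose and 3 fell from the E12.5 controls to the E15.5 GFP controls. In the libraries labelled knockout Emx2 rose (0.29, log2) and Eomes fell (-0.38) against the E12.5 controls. Markers of the ventral telencephalon, a neighbouring region, were also present and uneven in the sorted cells, with a sum over 7 genes of 782.5, 251.8 and 14.8 CPM in GFP control replicates 1, 2 and 3 and of 207.8, 200.3 and 11.9 CPM in gain replicates 1, 2 and 3. By Xist and Y-linked counts 2 of the 3 gain libraries and 1 of the 2 libraries labelled knockout were female, while all other libraries were male. In bulk samples fewer cells of a type and less RNA per cell cannot be told apart.

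Levels below are CPM with TMM scaling factors over all 11 libraries, and levels of different genes are compared only after division by exon length (RPKM). A gene rose or fell where edgeR's quasi-likelihood test gave a Benjamini-Hochberg adjusted p under 0.05 over all genes tested. SE is the error of the log2 fold change taken from that test.

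L3mbtl3 lies on the minus strand of chromosome 10 (ENSMUSG00000039089, GRCm38 chr10:26274468-26375185), with 23 merged exons of 4651 bases in all. Levels within the family spanned from abundant to nearly absent, and 3 promoters are shown here because they belong to genes at different points of that range: L3mbtl3, which was well expressed everywhere, Sfmbt2, which was low and differed between groups, and L3mbtl4, which was hardly detected. Each run is the 250 bases before a RefSeq start, for L3mbtl3 and Sfmbt2 the outermost of the starts listed (GRCm38.p6, read 5′ to 3′ on the gene's strand), at chr10:26375220-26375469 (minus), chr2:10370201-10370450 (plus) and chr17:68273547-68273796 (plus), with CG dinucleotides, the sites of DNA methylation, in capitals.
L3mbtl3: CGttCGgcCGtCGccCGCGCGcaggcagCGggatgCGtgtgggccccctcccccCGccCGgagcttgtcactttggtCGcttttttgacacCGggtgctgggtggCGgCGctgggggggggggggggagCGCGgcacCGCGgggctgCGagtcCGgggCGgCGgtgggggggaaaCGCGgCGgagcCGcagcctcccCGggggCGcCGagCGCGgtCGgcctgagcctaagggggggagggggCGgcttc
Sfmbt2: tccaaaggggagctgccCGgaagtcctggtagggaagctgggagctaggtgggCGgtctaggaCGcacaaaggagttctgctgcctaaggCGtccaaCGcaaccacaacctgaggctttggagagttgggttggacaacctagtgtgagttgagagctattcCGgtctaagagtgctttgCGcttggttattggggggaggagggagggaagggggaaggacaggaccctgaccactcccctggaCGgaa
L3mbtl4: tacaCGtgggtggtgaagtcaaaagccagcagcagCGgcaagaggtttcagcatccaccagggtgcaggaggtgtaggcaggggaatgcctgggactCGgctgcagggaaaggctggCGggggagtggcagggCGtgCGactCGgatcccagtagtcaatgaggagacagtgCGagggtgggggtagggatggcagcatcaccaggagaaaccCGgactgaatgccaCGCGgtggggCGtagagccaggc
The L3mbtl3 window held 34 CG dinucleotides, and 3.5% of 32851 mouse promoter windows held as many or more. For Sfmbt2 it held 8 (43.0% held as many or more), and for L3mbtl4 12 (33.5%). The windows of the second starts of L3mbtl3 and Sfmbt2 held 37 (2.2%) and 15 (27.3%), so the order of Sfmbt2 and L3mbtl4 depends on the start. RefSeq starts were matched for 8 of the 10 genes, with 11 windows. The windows of the genes not printed held 37 and 23 (Mbtd1), 20 (Phf20), 20 (Sfmbt1), 13 (L3mbtl2) and 11 (L3mbtl1). L3mbtl2, which had counts in all libraries, was thus next to the hardly detected L3mbtl4. Whether the number of CG dinucleotides goes with the level was not tested. The sequence CACGTG, an E-box bound by the Max and Mga factors of PRC1.6, was found in windows of Mbtd1, Sfmbt1 and L3mbtl4 and in 6.0% of all windows (it reads the same on both strands). GTGGGAA, a Rbpj motif, was in none of the 11 windows on either strand (5.4% of all windows), and TTCCCGC, an E2F motif, was in the window of Phf20 alone (3.8% of all windows). A match is a description of these letters and not a binding site.

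Among the E12.5 controls, Samd1 and Phf20l1 had the highest levels per length of the 10 genes and L3mbtl4 the lowest. Mean RPKM in these 3 libraries was 26.6 for Samd1, 24.7 for Phf20l1, 19.3 for Mbtd1, 12.4 for L3mbtl3, 12.1 for Phf20, 7.59 for Sfmbt1 and 7.42 for L3mbtl2. Sfmbt2 (0.471), L3mbtl1 (0.243) and L3mbtl4 (0.00872) followed far below. The ranges over libraries overlapped for the neighbours Samd1 and Phf20l1, L3mbtl3 and Phf20, and Sfmbt1 and L3mbtl2, so their order is not resolved. L3mbtl3 made up 58.5% to 66.1% of the summed RPKM of the 4 L3mbtl paralogs in the 8 libraries without its plasmid.

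**Figure D1:**
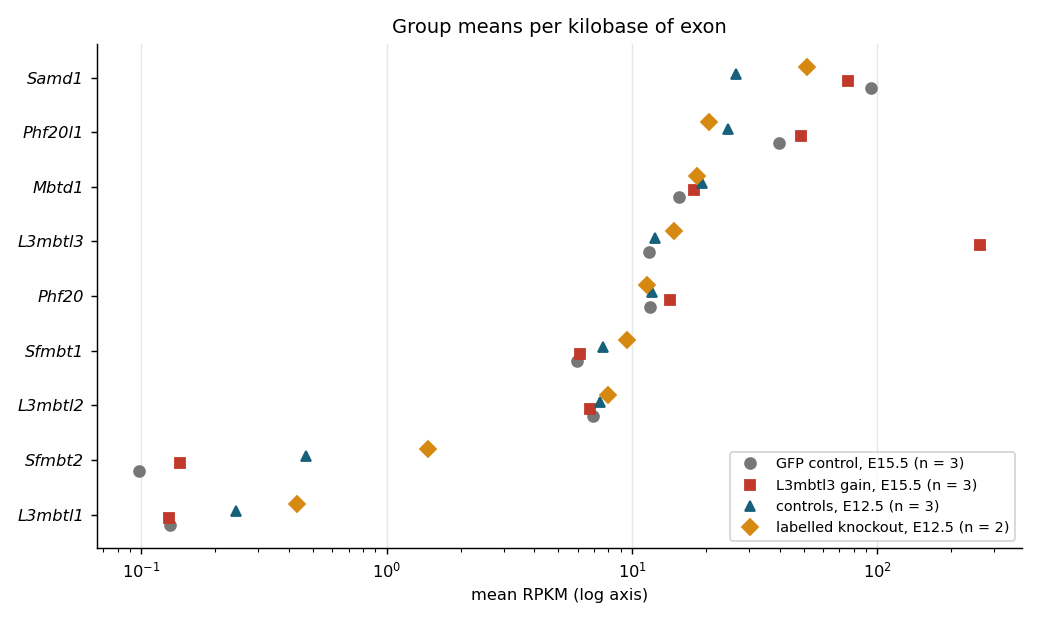
Mean RPKM (log axis) of 9 genes in 4 groups: GFP control and L3mbtl3 gain cells at E15.5, controls and libraries labelled knockout at E12.5. L3mbtl4 is left out, since 4 libraries had no count of it. L3mbtl3 is first in the gain group (263 RPKM) and Samd1 first in the other 3, while Sfmbt2 and L3mbtl1 stay at or below 1.47 RPKM in all 4. For L3mbtl3 the gene's own exon length is used in the gain group too, since the plasmid's insert was not given.

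L3mbtl4 was at the detection limit. It had 0, 1 or 2 counts in each of the 11 libraries, and a count of 0 allowed up to 0.112 to 0.182 CPM, depending on the library (counting error only). The gene did not pass the filter on low counts in any comparison, so 9 of the 10 genes were tested. L3mbtl1, the first described of the mammalian L(3)mbt-like proteins and a reader of monomethylated histone H4 lysine 20, was low as well, with 4 to 15 counts in the E15.5 libraries and 18 to 53 at E12.5.

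**Figure D2:**
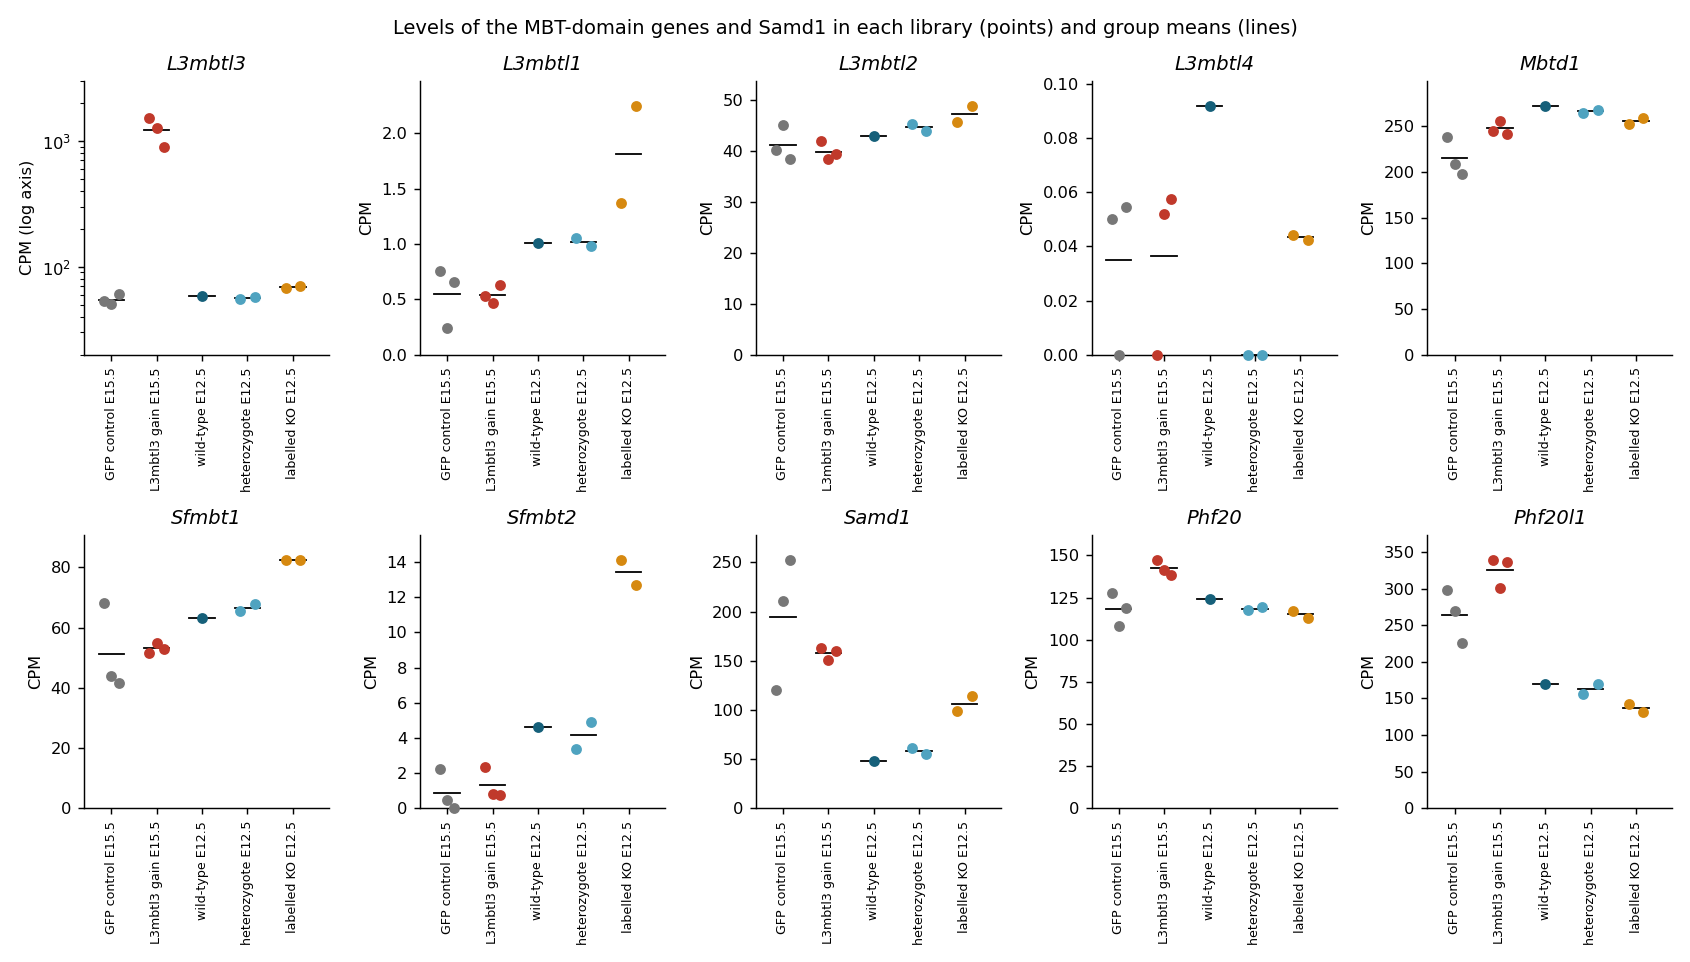
CPM of each of the 10 genes in each of the 11 libraries (points) with group means (lines), on linear axes from 0 except for L3mbtl3, whose axis is logarithmic. L3mbtl3 is far higher in the 3 gain libraries (896 to 1515 CPM), and Sfmbt2, Sfmbt1 and Samd1 are higher in both libraries labelled knockout than in the E12.5 controls.

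L3mbtl3, the targeted gene, checks the gain label, while its summed counts were not lower under the loss label. Since the allele was not given, these counts cannot check the loss label. GFP controls had 53.9, 50.2 and 60.3 CPM, and gain libraries had 1515, 1258 and 896 CPM. All gain libraries lay far above all controls, and gain replicate 3 was the lowest of them. The rise was 4.49 (log2, SE 0.217, edgeR adjusted p = 0.00136), a 22.5-fold change, and of 14698 genes tested it had the smallest p. Leaving out GFP control replicate 2 gave 4.42, which no longer passed (edgeR adjusted p = 0.0539). With the plasmid, L3mbtl3 went from 11.4% to 15.3% of the summed RPKM of the 9 MBT genes to 67.0% to 77.1%. Relative to its SAM-domain partner Samd1, its RPKM went from 0.106 to 0.199 in the GFP controls to 2.50 to 4.15 in the gain libraries. The length of the plasmid's insert was not given, so these gain shares and ratios rest on the gene's own exon length.

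At E12.5 L3mbtl3 measured 58.5 CPM in the wild-type library, 55.9 and 58.0 CPM in the heterozygotes and 67.3 and 70.4 CPM in the libraries labelled knockout. Both libraries labelled knockout were above all 3 controls, so the label is used below only as a label. Heterozygotes differed from the wild-type by -0.05 (log2, 95% interval -0.23 to 0.13, edgeR adjusted p = 0.9998), an interval that leaves out a loss of 1 log2 unit in counts summed over the gene. The lone wild-type library was assumed to vary like the other groups. In the libraries labelled knockout L3mbtl3 rose by 0.27 over the controls (SE 0.0539, edgeR adjusted p = 0.0128). It did not pass when knockout replicate 2 was left out (0.23, edgeR adjusted p = 0.0550) or with a term for embryo sex (0.23, edgeR adjusted p = 0.0605). The only female library at E12.5 was 1 of the 2 labelled knockout, so the sex term cannot be told apart from leaving that library out. This holds for the other members below as well. Counts summed over 23 merged exons do not show whether an exon was missing from the transcripts.

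The GFP controls at E15.5 and the controls at E12.5 had alike levels of L3mbtl3, at 54.8 ± 5.10 and 57.5 ± 1.40 CPM (SD, n = 3 each). The difference was -0.06 (log2, 95% interval -0.28 to 0.16, edgeR adjusted p = 0.587), in a comparison where 62.3% of 15968 genes were called (31.1% higher and 31.3% lower). Scaled by library totals only it was -0.34 (edgeR adjusted p = 0.0115), and that scaling moved the median of all genes to -0.30, against -0.03 with TMM. The share of calls that were higher at E15.5 was 49.9% with TMM and 35.5% by library totals. Voom with quality weights gave -0.17 (voom adjusted p = 0.0304). Age, sorting, electroporation and the controls' genotypes cannot be told apart in this comparison.

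By likeness of profile, the genes closest to L3mbtl3 over the 8 libraries without its plasmid were Fam53a, Fut11, Mzf1, Ddx27 and Wasf3. Their log2 profiles, centred on their own means, lay at root-mean-square distances of 0.0635, 0.0742, 0.0774, 0.0780 and 0.0784 from that of L3mbtl3, the smallest among 13312 genes. Nearest within the family were L3mbtl2 (0.143, rank 510), Phf20 (0.168, rank 1087) and Mbtd1 (0.180, rank 1423), while Samd1 (0.846) and Sfmbt2 (1.49) lay far away. These distances describe 8 libraries and carry no test.

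In the E12.5 tissue, 4 of the 9 tested genes rose in the libraries labelled knockout (L3mbtl3, Sfmbt1, Sfmbt2 and Samd1) and 1 fell (Phf20l1). Of 16361 genes tested 1213 were called, which is 7.41% (3.63% higher and 3.78% lower). Knockout against heterozygote called the same 5 members and 3.70% of all genes. In that fit the wild-type library formed a group of its own, so the spread came from the heterozygote and knockout libraries alone. Between heterozygote and wild-type edgeR, DESeq2 and voom each called 0 of the 9, edgeR and voom each called 0.0244% and DESeq2 0.0183% of all genes, and Samd1 alone had an unadjusted p under 0.05. The genes were chosen with earlier results of these libraries known, so the counts describe the family and add no test of it.

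Sfmbt2, a Polycomb-group relative whose locus is imprinted in the mouse placenta and carries a large intronic microRNA cluster (ENSMUSG00000061186, GRCm38 chr2:10370510-10595253), changed most. It had 100 counts in the wild-type library (4.60 CPM), 99 and 90 in the heterozygotes (3.37 and 4.93 CPM) and 319 and 299 in the libraries labelled knockout (14.1 and 12.7 CPM). The groups were apart, with 3.37 to 4.93 CPM in the controls. Sfmbt2 rose by 1.67 (log2, SE 0.149, 95% interval 1.34 to 2.00, edgeR adjusted p = 8.43e-05), a 3.18-fold change. With single libraries left out the rise ran from 1.498 to 1.77, and the call was lost only when all 11 libraries shared 1 fit (1.65, edgeR adjusted p = 0.9999), among the 13 other settings tried. That fit, which takes in the spread of the sorted cells, called 4 of all genes and none of the 5 members called here.

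Levels of Sfmbt2 were ordered like the ventral telencephalon markers among the E12.5 libraries and within each arm of the sorted cells, but not across the arms. Ventral genes summed to 97.1 and 69.8 CPM in the libraries labelled knockout against 38.8 to 62.2 CPM in the controls, and 2 of the 7 rose (Dlx2 by 0.85 and Dlx5 by 0.83, homeobox factors of GABAergic neurons). The 5 E12.5 libraries fell in the same order by Sfmbt2 and by the ventral sum. In the sorted cells Sfmbt2 had 44, 8 and 0 counts in GFP control replicates 1, 2 and 3, the order of the ventral sums in those libraries. It had 45, 16 and 13 counts in gain replicates 1, 2 and 3, again in the order of the ventral sums. All 7 ventral genes had counts in the E12.5 libraries, and 1 of them was at 0 in GFP control replicate 1 and in gain replicate 1. Between the arms the orders differed, since gain replicate 3 had the lowest ventral sum (11.9 CPM) and more Sfmbt2 (0.746 CPM) than GFP control replicate 2 (251.8 CPM and 0.474 CPM). Across ages they differed too, since the ventral sums of several sorted libraries exceeded those at E12.5 while Sfmbt2 was lower in all of them. Choroid plexus genes moved the other way at E12.5, with a sum over 6 genes of 258 and 255 CPM in the libraries labelled knockout and 539 to 615 CPM in the controls, and 5 of the 6 fell, with none of them at 0. The part of either cell type in the change of Sfmbt2 was not tested.

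**Figure D3:**
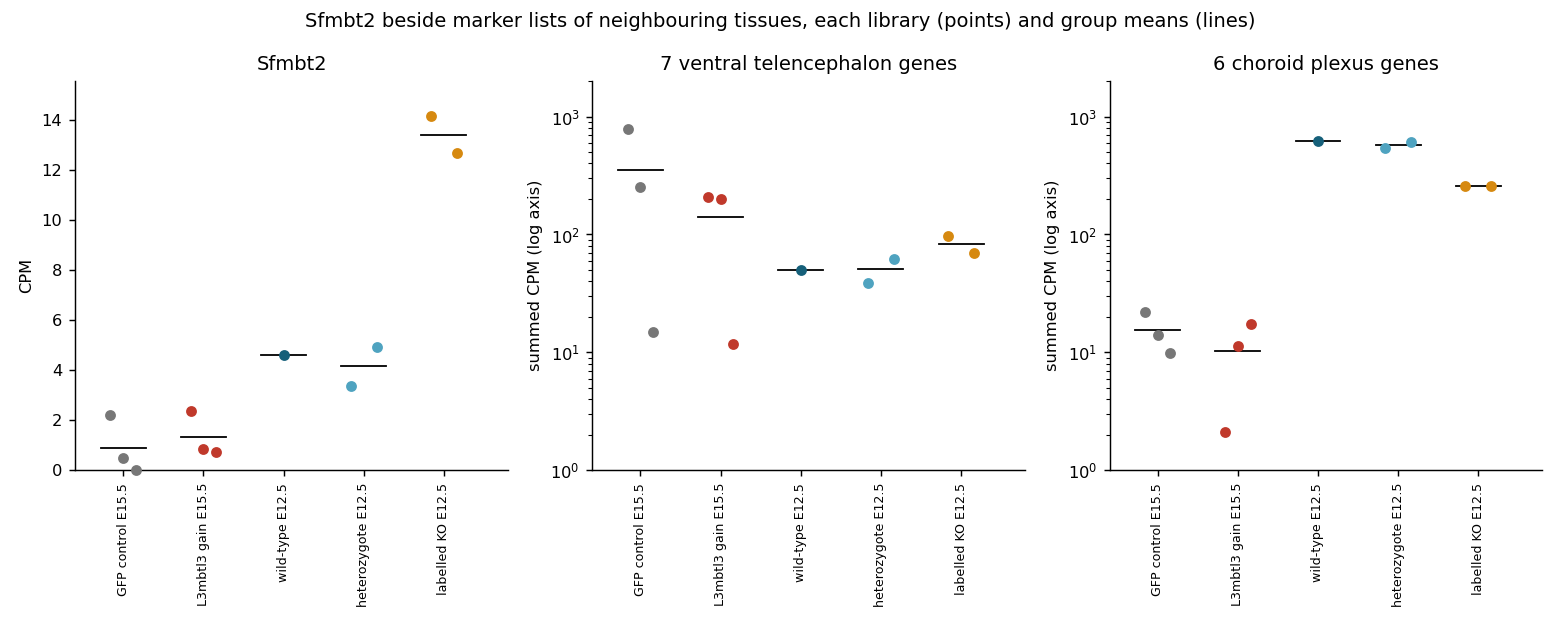
Sfmbt2 (CPM, linear axis from 0) beside the summed CPM (log axes) of 7 ventral telencephalon and 6 choroid plexus genes, per library (points) with group means (lines). Both libraries labelled knockout are high in Sfmbt2 (12.7 and 14.1 CPM) and low in choroid plexus genes among the E12.5 libraries, and the 3 GFP controls fall in the same order for Sfmbt2 and ventral genes.

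Sfmbt1, the paralog of Sfmbt2 and a reported partner of LSD1-CoREST (ENSMUSG00000006527, GRCm38 chr14:30714849-30822713), rose by less. It measured 63.3 CPM in the wild-type library, 65.4 and 67.8 CPM in the heterozygotes and 82.4 and 82.6 CPM in the libraries labelled knockout, without overlap. The rise was 0.34 (log2, SE 0.0507, edgeR adjusted p = 0.00259). Like that of Sfmbt2, the call was lost only in the fit of all 11 libraries (edgeR adjusted p = 0.9999).

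Samd1, which binds unmethylated CpG-rich promoters (ENSMUSG00000079003, GRCm38 chr8:83997672-84000386), was the other large change. The wild-type library had 48.0 CPM, the heterozygotes 61.8 and 55.2 CPM and the libraries labelled knockout 99.0 and 114 CPM. Every library labelled knockout was above every control, and the rise was 0.95 (log2, SE 0.107, 95% interval 0.70 to 1.21, edgeR adjusted p = 0.00381), a 1.94-fold change. Samd1 missed the threshold when knockout replicate 2 was left out (0.85, edgeR adjusted p = 0.0539) and with a term for embryo sex (0.85, edgeR adjusted p = 0.0506). The transcript of Samd1 is rich in G and C (67.3%), and the median change of the 1397 genes nearest to it in GC content (genes were ranked by GC and cut into 10 equal bins) was 0.07, with quartiles of -0.06 and 0.18. The heterozygotes stood 0.28 above the wild-type (95% interval 0.05 to 0.52, unadjusted p = 0.0224, edgeR adjusted p = 0.9998).

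Phf20l1, a reader of methyl-lysine on histones and on DNA methyltransferase 1 (ENSMUSG00000072501, GRCm38 chr15:66577572-66645255), went the other way. It had 169 CPM in the wild-type library, 156 and 169 CPM in the heterozygotes and 143 and 131 CPM in the libraries labelled knockout, and fell by 0.26 (log2, SE 0.0515, edgeR adjusted p = 0.0115). Both libraries labelled knockout lay below the lowest control. Phf20l1 too missed the threshold when knockout replicate 2 was left out (-0.20, edgeR adjusted p = 0.0597) and with a term for embryo sex (-0.20, edgeR adjusted p = 0.0694). Its paralog Phf20 stood at -0.06 (95% interval -0.16 to 0.04, edgeR adjusted p = 0.473).

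The remaining members were not called at E12.5. L3mbtl1 had 22 counts in the wild-type library, 31 and 18 in the heterozygotes and 31 and 53 in the libraries labelled knockout. Its difference was 0.83 (log2, SE 0.275, 95% interval 0.23 to 1.43, edgeR adjusted p = 0.0953). With no low-count filter L3mbtl1 was called (0.84, edgeR adjusted p = 0.0426). The difference was 1.14 without knockout replicate 1, 0.43 without knockout replicate 2 and also 0.43 with a term for embryo sex. L3mbtl2 stood at 0.10 (95% interval -0.02 to 0.23) and Mbtd1 at -0.06 (95% interval -0.15 to 0.02). For L3mbtl2, Mbtd1 and Phf20 the intervals leave out changes beyond 0.23 log2 units in either direction.

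**Figure D4:**
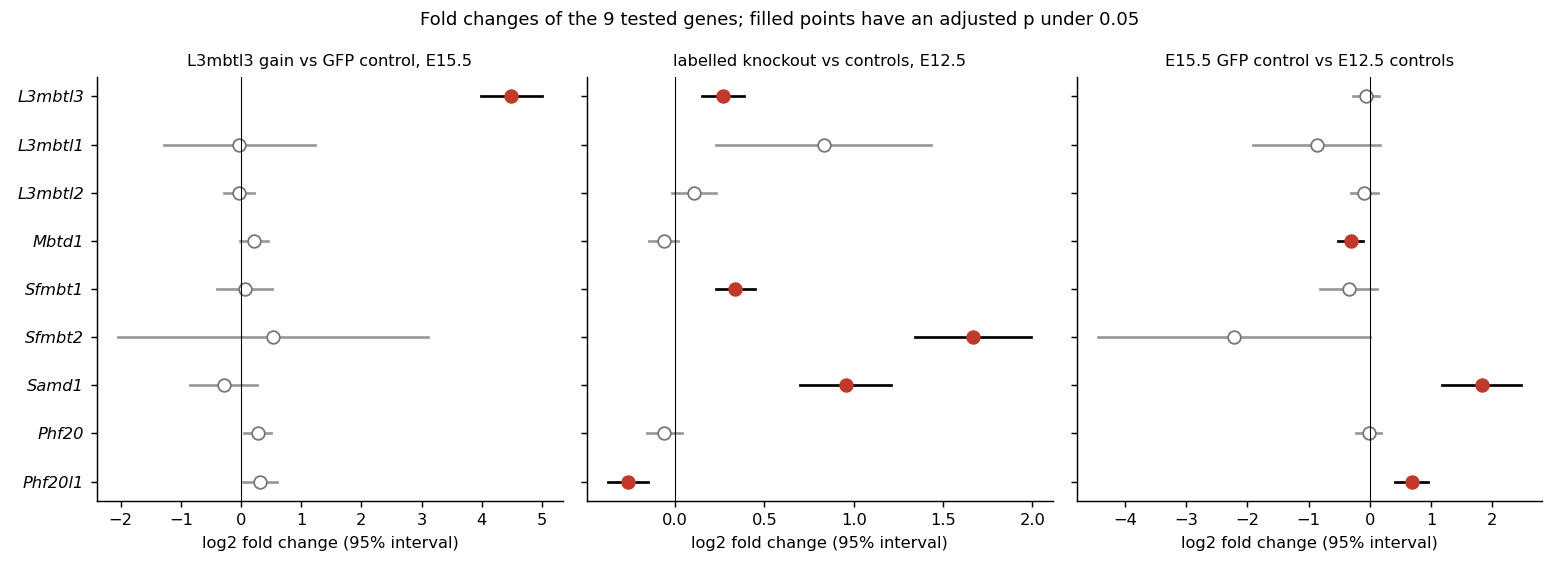
Log2 fold changes (points) with 95% intervals (lines) of the 9 tested genes in the gain, loss and age comparisons, on axes of different range. Filled points have an adjusted p under 0.05: L3mbtl3 in the gain comparison, 5 genes in the loss comparison, and Mbtd1, Samd1 and Phf20l1 between E15.5 GFP controls and E12.5 controls.

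In the sorted E15.5 cells, no relative of L3mbtl3 was called after L3mbtl3 was raised. Of 14698 genes tested 2 were called (0.0136%), 1 of them L3mbtl3, and 1264 had an unadjusted p under 0.05. Voom with quality weights called 4 of the members and 14.4% of all genes, and DESeq2 called L3mbtl3 alone of the members and 0.847% of all genes. Without GFP control replicate 1 edgeR called 415 of all genes and 2 of the members, and without GFP control replicate 2 it called 0 (693 at an unadjusted p under 0.05). Marker sums of microglia and endothelial cells did not overlap between the arms. The 7 microglia genes summed to 14.8 to 35.9 CPM in the GFP controls and 5.58 to 8.16 CPM in the gain libraries, and 6 endothelial genes to 9.36 to 11.8 CPM and 2.34 to 4.58 CPM. All 7 microglia genes and all 5 tested endothelial genes were lower in the gain cells (median log2 differences of -2.42 and -1.63), with edgeR adjusted p values from 0.457 to 0.851. All 6 tested ventral, 5 erythroid and 4 meningeal genes were lower too (medians of -1.20, -0.94 and -1.76), as were 3 of 4 choroid plexus genes (-0.51). Of the 7 dorsal genes 5 were higher (median 0.15). None of these genes was called. No microglia gene was at 0 in any sorted library, and 1 endothelial gene was at 0 in gain replicate 2. The part of these cells in the members' values was not tested.

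Phf20 and Phf20l1 had the smallest p of the members after L3mbtl3. Phf20 measured 128, 108 and 119 CPM with the empty plasmid and 148, 141 and 139 CPM with L3mbtl3, so that every gain library was above every control. Its difference was 0.28 (log2, SE 0.0951, 95% interval 0.06 to 0.50, edgeR adjusted p = 0.551). Phf20l1 measured 298, 269 and 226 CPM with the empty plasmid and 340, 301 and 337 CPM with L3mbtl3, also without overlap, at 0.31 (SE 0.123, edgeR adjusted p = 0.566). Voom with quality weights called both (voom adjusted p = 0.00952 for Phf20 and 0.0220 for Phf20l1).

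Samd1 varied more among the GFP controls than between the arms. Control values were 120, 211 and 253 CPM and gain values 163, 150 and 160 CPM, whose range lay inside that of the controls. The difference was -0.29 (log2, SE 0.236, edgeR adjusted p = 0.697). Without GFP control replicate 1 it was -0.53 and was called (edgeR adjusted p = 0.0472). Genes of the same GC content as Samd1 had a median of -0.18 in this comparison.

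Mbtd1 stood at 0.21 (95% interval -0.02 to 0.45), Sfmbt1 at 0.06 (95% interval -0.41 to 0.52) and L3mbtl2 at -0.04 (95% interval -0.28 to 0.21). Their edgeR adjusted p values were 0.585, 0.925 and 0.907. Voom with quality weights called Mbtd1 (0.26, voom adjusted p = 0.0225). The bin of GC content that holds Mbtd1 and Phf20l1 had a median of 0.12 in this comparison. Sfmbt1 was 68.3 CPM in GFP control replicate 1 and 43.8 and 41.7 CPM in the other controls, against 51.5 to 54.8 CPM in the gain libraries. Its direction turned without GFP control replicate 2 (-0.05) or 3 (-0.07), and that of L3mbtl2 without GFP control replicate 2 (0.02). For the scarce L3mbtl1 (-0.03, 95% interval -1.28 to 1.23) and Sfmbt2 (0.54, 95% interval -2.04 to 3.12) a change of 1 log2 unit was not resolved either way.

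Between the ages, Samd1 and Phf20l1 were higher and Mbtd1 lower in E15.5 GFP controls than in E12.5 controls. Samd1 went from 48.0 to 61.8 CPM at E12.5 to 120 to 253 CPM at E15.5, without overlap, a rise of 1.83 (log2, SE 0.271, edgeR adjusted p = 0.00132). The 1374 genes of the same GC content had a median of 0.78 here, with quartiles of -0.15 and 1.46. Phf20l1 went from 156 to 169 CPM to 226 to 298 CPM and rose by 0.69 (SE 0.113, edgeR adjusted p = 0.00208), while its own bin of GC content had a median of -0.35. Mbtd1 fell by 0.31 (SE 0.0884, edgeR adjusted p = 0.0190), near the median of -0.35 of its bin of GC content, the same bin as that of Phf20l1. The call of Mbtd1 was lost when GFP control replicate 2, either heterozygote or the wild-type was left out (edgeR adjusted p of 0.0592 to 0.0769). With 62.3% of all genes called, 3 calls among 9 members are not above the background.

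Sfmbt2 showed the widest difference of level across the ages, from 90 to 100 counts in the E12.5 controls to 44, 8 and 0 in the GFP controls. It was not called (-2.22, 95% interval -4.44 to 0.01, edgeR adjusted p = 0.0764), but was without GFP control replicate 1 (-4.19, edgeR adjusted p = 0.00307) or replicate 3 (-1.61, edgeR adjusted p = 0.0286). In the same comparison all 6 choroid plexus, 6 endothelial, 7 erythroid and 6 meningeal genes fell, with medians from -5.67 to -4.01. Their part in the levels of Sfmbt2 was not tested. L3mbtl1 (-0.86, edgeR adjusted p = 0.125), Sfmbt1 (-0.35, edgeR adjusted p = 0.158), L3mbtl2 (-0.09, edgeR adjusted p = 0.437) and Phf20 (-0.02, edgeR adjusted p = 0.857) were not called. Sfmbt1 was called without GFP control replicate 1 (-0.61, edgeR adjusted p = 0.000420), by library totals (-0.61, edgeR adjusted p = 0.0453) and with voom (-0.53, voom adjusted p = 0.000147). L3mbtl1 was called with voom (-1.78, voom adjusted p = 0.00123), as was Sfmbt2 (-3.13, voom adjusted p = 0.000416). Scaling by library totals also called L3mbtl2 (-0.36, edgeR adjusted p = 0.0192) and Phf20 (-0.29, edgeR adjusted p = 0.0339), with the shift of the median given above, and for L3mbtl2 voom gave 0.02.

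Genes of the complexes that these proteins join were called at shares near those of all genes in the gain and loss comparisons. In the gain comparison 0 of 2 other MBT-domain genes (Scmh1 and Scml2, Polycomb subunits), 0 of 11 reported partners and substrates of L3mbtl3, 0 of 11 PRC1.6 genes, 0 of 8 NSL genes, 0 of 14 NuA4/TIP60 genes, 0 of 8 Yy1 and LSD1-CoREST genes and 0 of 9 methyl-lysine enzymes passed edgeR's test, where 2 of all genes did. Of the 59 genes in these lists, some of which are in several, 0 had an unadjusted p under 0.05 in edgeR, beside 1264 of the 14698 genes tested. DESeq2 called 0 and voom called 9 of the 59, beside 0.847% and 14.4% of all genes. Among them Rbpj stood at 0.38 (SE 0.185), the PRC1.6 scaffold Mga at 0.42 (SE 0.185), its partner Rybp at 0.30 (SE 0.136), the NuA4 subunit Trrap at 0.43 (SE 0.247) and Ep400, its ATPase, at 0.31 (SE 0.178). Their edgeR adjusted p values ran from 0.585 to 0.622. The E2F factor E2f1 stood at -0.38 (SE 0.240), the NSL subunit Mcrs1 at -0.25 (SE 0.112), the O-GlcNAc transferase Ogt at 0.30 (SE 0.148), Scml2 at 0.71 (SE 0.401) and Scmh1 at 0.04 (SE 0.109). The CoREST scaffolds Rcor1 and Rcor2 stood at 0.24 (SE 0.156) and -0.13 (SE 0.0917), and the methyltransferases Kmt5b and Ehmt1 at 0.22 (SE 0.103) and 0.18 (SE 0.107).

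In the libraries labelled knockout the same lists held 4 called genes among 59, beside 7.41% of all genes. The NSL list had 1 of 8, Hcfc1, a transcriptional coregulator, which rose by 0.22 (SE 0.0550, edgeR adjusted p = 0.0390). The NuA4/TIP60 list had 1 of 14, Ep400, which rose by 0.18 (SE 0.0441, edgeR adjusted p = 0.0281). Among 8 Yy1 and LSD1-CoREST genes the BHC complex subunit Hmg20b rose by 0.33 (SE 0.0754, edgeR adjusted p = 0.0239) and the deacetylase Hdac2 fell by 0.15 (SE 0.0420, edgeR adjusted p = 0.0492). Partners of L3mbtl3 gave 0 of 11, PRC1.6 genes 0 of 11, methyl-lysine enzymes 0 of 9 and other MBT-domain genes 0 of 2, against 7.41% of all genes. In those 4 lists 2, 3, 4 and 0 genes had an unadjusted p under 0.05 in edgeR. Of all 59 list genes 18 did, beside 3597 of the 16361 genes tested. In the 4 lists DESeq2 called 1, 0, 0 and 0, and voom called 1, 0, 0 and 0, beside 6.39% and 6.04% of all genes. The partner and substrate Sox2 stood at 0.28 (SE 0.0697, edgeR adjusted p = 0.0526) and the E3 ligase Ring1, which is in the partner and PRC1.6 lists, at 0.19 (SE 0.0638, edgeR adjusted p = 0.0944). The heterochromatin protein Cbx3 of PRC1.6 stood at -0.10 (SE 0.0406), the methyltransferases Suv39h1 and Kmt5b at 0.13 (SE 0.0440) and -0.11 (SE 0.0438), Scml2 at -0.19 (SE 0.113) and Scmh1 at 0.05 (SE 0.0595). List medians lay between -0.07 and 0.09, beside 0.00 for all genes tested.

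Between the ages these lists changed in both directions, with 35 of the 59 genes called beside 62.3% of all genes. Of the 11 partners and substrates of L3mbtl3, 2 rose (Kdm1a by 1.18, SE 0.0689, and Dcaf5, its ubiquitin ligase adaptor, by 0.79, SE 0.0742) and 4 fell, among them Ddb1 (-0.64) and Cul4b (-1.04) of the same ligase. PRC1.6 genes split 3 and 3, with Max at 0.95 and E2f6 at -1.08, Tfdp1 at -0.55 and Mga at -0.94. For NuA4/TIP60 6 rose and 2 fell, such as the acetyltransferase Kat5 (0.82), Dmap1 (0.82) and Epc1 (0.65) against Actl6a (-0.76), the progenitor subunit shared with BAF complexes. In the NSL list 3 rose, Kansl2 (0.58), the acetyltransferase Kat8 (0.50) and Mcrs1 (0.50). Of the 8 Yy1 and LSD1-CoREST genes 4 rose, among them Rcor2 (1.39) and Hdac2 (0.53), and Hdac1 fell by 0.89. Methyl-lysine enzymes split 3 and 3, and Ehmt2 (1.16), Kmt5c (0.70) and Kmt5a (0.75) rose while Suv39h1 fell by 0.88. The MBT genes Scml2 (-1.63) and Scmh1 (0.32) changed in opposite directions.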

How the data were processed

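RNA-seq of polyA RNA (stranded TruSeq, single-end, per the labels' protocols) was measured in 11 libraries. The deposited values are raw counts per gene from featureCounts 2.0.1, run as reversely stranded on an Ensembl GRCm38 annotation, per the file headers. The recorded command has no option to count multi-mapping or multiply overlapping reads. MicroRNA genes overlap the span of Sfmbt2, and whether any of them overlaps its exons was not checked. The submitters' processing notes name HISAT2 2.2.1, SAMtools 1.9 and build GRCm38, and no source used here gives the annotation release. The deposited gene length column, of no sample, was used for RPKM.

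Symbols were matched for 97.971% of 46078 identifiers, and unmatched ones held 0.1117% of counts. Tests used edgeR 4.0.16 (filterByExpr, TMM, robust quasi-likelihood) under R 4.3.3; tests were two-sided, p-values were adjusted by Benjamini-Hochberg over all genes tested, and intervals are 95%. The scripts were tested on simulated data. Comparisons were gain against GFP control, labelled knockout against the 3 E12.5 controls, knockout against heterozygote, heterozygote against wild-type, and GFP control against E12.5 controls. The last shares its control libraries with the gain and loss comparisons. Alternatives were other scalings, no filter, DESeq2 1.42.0, voom in limma 3.58.1, a replicate block, an embryo sex term, 1 fit of all libraries and each library left out. No replicate pair agreed within sampling noise. A count of 0 was given an upper limit of 3 counts.

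Named genes are all 10 members, from each partner list the called genes with the smallest p (at most 4) or else the 2 with the smallest p, and the 5 genes nearest to L3mbtl3 by root-mean-square distance of centred log2(CPM + 0.5), among genes with a mean log2 CPM of at least 1. Members and lists were chosen with earlier results of these data known. A gene of the dorsal marker list is not reported here, and its sum was taken over the other 7.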

Additional observations from a re-analysis of the deposited data

How the results depend on the processing

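Sfmbt1 and Sfmbt2 kept their calls in the labelled knockout in 12 of 13 alternatives, and L3mbtl3, Samd1 and Phf20l1 in 10 of 13. Against heterozygotes alone the calls of L3mbtl3, Sfmbt1 and Phf20l1 were lost in 7, 6 and 8 of 13. Both sets of 13 hold the sex term and the fit without the 1 female library, labelled knockout, which are nearly the same fit. Low counts limit L3mbtl4 and L3mbtl1. For Sfmbt2 at E15.5 the GFP controls ran from 0 to 44 counts at similar library totals.

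In the gain comparison 2 genes and 1 member were called. DESeq2 called 122 genes, voom 2120 genes and 4 members, and the fit with embryo sex 1 gene. With no filter it was 3 genes. Single libraries left out gave 0 to 415 genes and 0 to 2 members. Directions that turned were those of L3mbtl1 with voom (0.94) and with the replicate block (0.0643), and of Sfmbt2 with embryo sex (-0.13). With single libraries left out L3mbtl1 ran from -0.38 to 0.29, L3mbtl2 from -0.0868 to 0.0245, Sfmbt1 from -0.0738 to 0.34 and Sfmbt2 from -0.19 to 2.50.

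In the loss comparison 1213 genes and 5 members were called. The count was 2266 with no filter, 654 genes and 2 members with embryo sex, and 4 genes and 0 members in the fit of all 11 libraries (678 genes at an unadjusted p under 0.05). Single libraries left out gave 603 to 1785 genes and 2 to 6 members. Knockout against heterozygote, with 606 genes and 5 members, gave 1531 genes with no filter, 322 genes and 3 members with DESeq2, 256 genes and 2 members with embryo sex and 2 genes and 0 members in the fit of all 11 libraries. Single libraries left out gave 131 to 646 genes and 2 to 5 members. Heterozygote against wild-type gave 4 genes, 46 with no filter and 0 in the fit of all 11 libraries (32 at an unadjusted p under 0.05, and 3 called by DESeq2). With single libraries left out L3mbtl1 ran from -0.0449 to 0.0550 and Sfmbt2 from -0.45 to 0.0922 there.

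Between the ages 3 members were called, 7 by library totals and 7 with voom, which also turned L3mbtl2 (0.0180). Single libraries left out gave 2 to 5 members, with L3mbtl3 from -0.13 to 0.0030 and Phf20 from -0.0860 to 0.0482. The cause of these shifts was not tested.

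Same-numbered GFP control and gain libraries deviated together with correlations of 0.17, 0.01 and 0.28. GFP control replicates 1 and 3 correlated best with their own number, and replicate 2 did not. Heterozygote and knockout pairs gave -0.02. With so few libraries the check cannot tell whether the numbers pair the samples. The main tests used no pairing. With the replicate block the gain comparison called 3 genes, the loss comparison 948, and knockout against heterozygote 324 genes and 2 members, and L3mbtl1 turned between heterozygote and wild-type (-0.14).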
